A study of Homo sapiens with 6 samples.

Results

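Eph receptors and ephrins were examined through 10 genes, chosen by name: the receptor genes EPHA1, EPHA2, EPHB2, EPHB3 and EPHB4, and the ligand genes EFNA1, EFNA4, EFNA5, EFNB1 and EFNB2. All 10 had a row among the 20476 genes of the count table, and they form part of the 22 Eph and ephrin genes of the human genome. The cells were SW620, a human colorectal cancer line established from a lymph node metastasis. The shECM1 group (n = 3 libraries) carried a stable short hairpin RNA against ECM1, which encodes a secreted extracellular matrix glycoprotein, and the shNC group (n = 3) carried a stable negative control hairpin, so that both groups hold an integrated hairpin. Whether each group is 1 clone or a pool of infected cells, and whether replicates came from separate cultures, is not given in the sources used here, so p-values measure the spread between these libraries, which may be technical.

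Eph proteins are receptor tyrosine kinases that bind membrane-anchored ephrins on neighbouring cells. EphA receptors mostly bind ephrin-A ligands, which are held by a lipid anchor, and EphB receptors mostly bind ephrin-B ligands, which span the membrane and can themselves signal into the cell that carries them. In the intestinal crypt, EPHB2 and EPHB3 are targets of the beta-catenin/TCF complex and keep cells in their place along the crypt against an opposing ephrin-B gradient, while EPHA2 is known as a receptor whose transcription follows growth factor and ERK signalling in many epithelial tumours.

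Library totals ran from 9881720 to 16813951 counts in shECM1 and from 11792872 to 14781799 in shNC. The letters in the deposited column names were read as knockdown and control, an inference from names, and every direction below rests on it. ECM1 itself was at 14.8, 13.6 and 8.41 CPM (counts scaled to a common library total) in the shECM1 libraries and at 38.8, 19.0 and 52.3 CPM in the shNC libraries, without overlap. Its log2 fold change of -1.58 ± 0.32 (SE) was not called by edgeR's quasi-likelihood test (Benjamini-Hochberg adjusted p = 0.0973). ShNC replicate 2 stands apart from the other controls: in 8572 of 12576 tested genes (68.2%) its level was nearer to the shECM1 mean than to the mean of shNC replicates 1 and 3. Values without that library are therefore given beside the results. That library was picked for lying near shECM1, so leaving it out tends to widen group differences and those calls are no separate support. Without it edgeR called 3037 genes, and without shNC replicate 3 edgeR called 0. Of 10 colon epithelial markers 9 were tested and 6 lay below 0, where 48.6% of all genes did. At an unadjusted p under 0.05, 2 were lower and 0 higher (22.2%, against 14.2% of all genes lower). EdgeR and DESeq2 called 0 of them, and edgeR without shNC replicate 2 called 3 lower, against 14.1% of all genes. EPCAM was at 518.6 ± 30.4 CPM in shECM1 and 471.6 ± 25.8 CPM in shNC, and KRT8 at 6183 ± 578 and 7441 ± 1380 CPM (SD, n = 3 each). The log2 fold changes of KRT18 and CDH1, a keratin and the E-cadherin gene, were -0.29 ± 0.13 and -0.43 ± 0.15 (SE). KRT20, a marker of differentiated enterocytes, lay at or below 1.78 CPM in every library.

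Of the 10 genes, 9 passed the filter on low counts and EFNA5 did not. The log2 fold changes of shECM1 minus shNC were below 0 in all 9 (median -0.57), whereas 48.6% of all 12576 tested genes lay below 0 and their median was 0.01. The genes were chosen with earlier results of these data known, so this tally and those below are no independent support. EPHA1, EPHA2, EFNB1 and EFNB2 had the lower levels in shECM1 at an unadjusted p under 0.05, while EPHB2, EPHB3 and EFNA1 had the estimates nearest 0. Without shECM1 replicate 3, EPHB2 was at -0.14, EPHB3 at -0.47 and EFNA1 at -0.30, all uncalled (edgeR adjusted p = 0.410, 0.183 and 0.208). With adjustment over all genes, edgeR called 0 of the 9 (0.0% of all genes tested were called), and limma-voom also called 0 of the 9 (0.0% of all genes). At an unadjusted p under 0.05 there were 4 of 9 lower by either tool, against 14.2% of all genes lower by edgeR and 13.3% by limma-voom. DESeq2 called EPHA1, EPHA2 and EFNB1 lower, 3 of 9, against 5.08% of all genes. EdgeR fitted to every gene with a count called EPHA1 and EPHA2 lower, 2 of 10, against 2.83% of all genes. Without shNC replicate 2, edgeR called EPHA1, EPHA2, EFNB1 and EFNB2 lower, 4 of 9, against 14.1% of all genes, and DESeq2 called the same 4, against 12.8%. Without shNC replicate 3, edgeR called 0 genes.

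**Figure D1:**
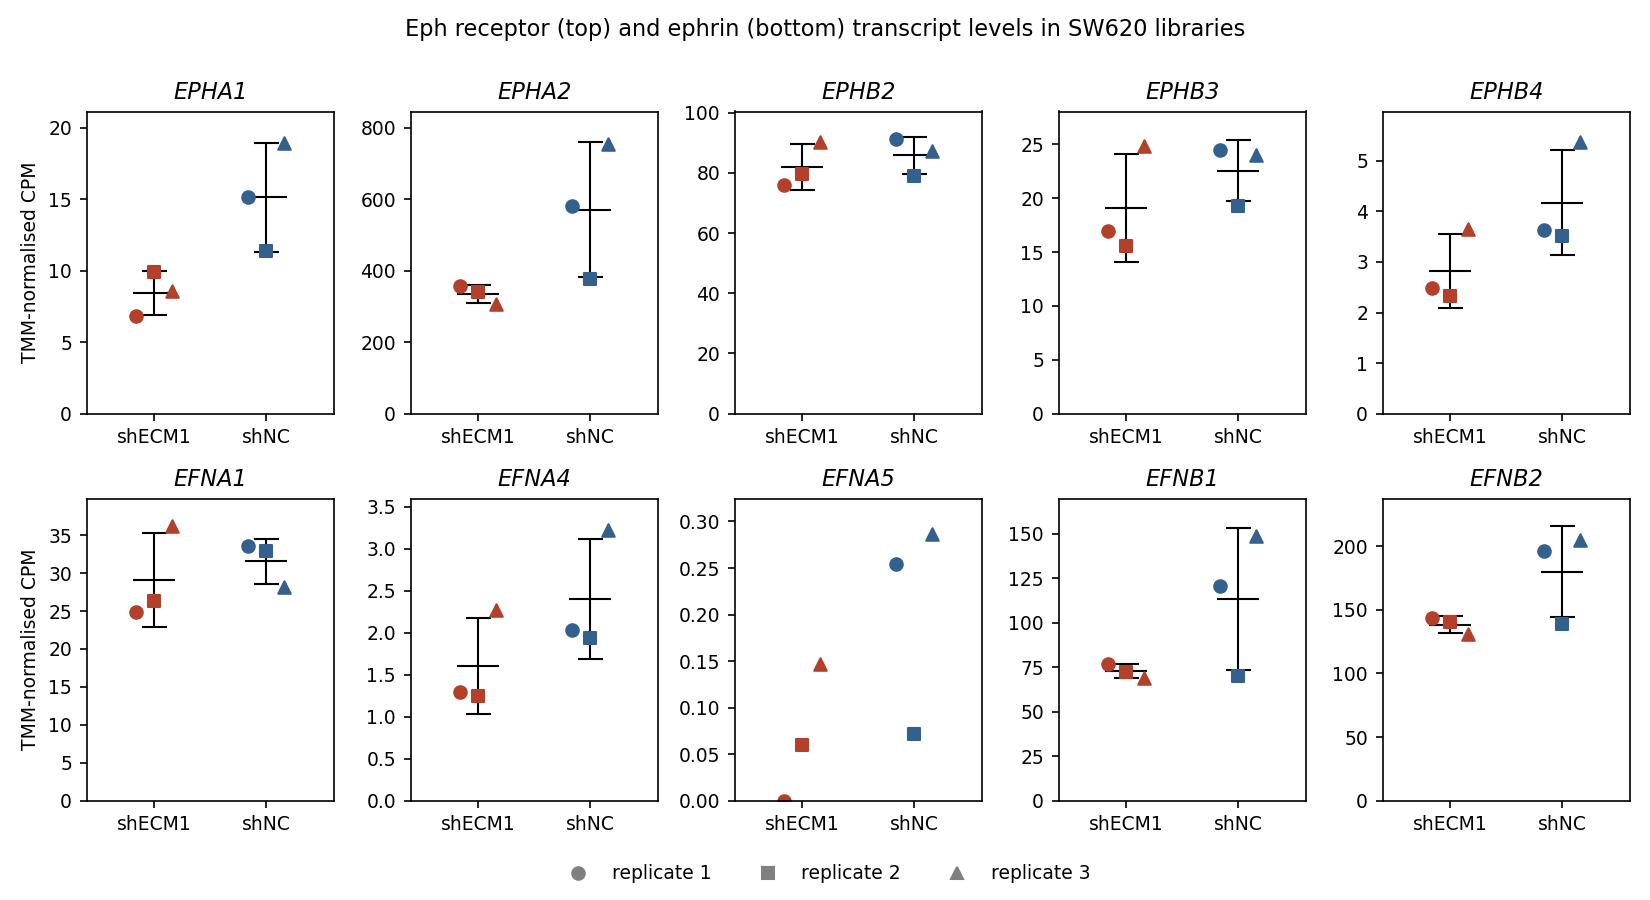
Each panel plots the level of 1 gene in TMM-normalised CPM on a linear axis from 0, with shECM1 libraries on the left and shNC libraries on the right. Points are libraries, shaped by replicate number, and the bars are the mean and SD of 3 libraries (not drawn for EFNA5, which rests on 0 to 4 counts per library). For EPHA2 the shECM1 libraries lie between 307.5 and 355.9 CPM, below every shNC library, while the groups overlap for EPHB2.

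Among the A-type receptors, EPHA2 (ENSG00000142627, GRCh38 chromosome 1, 16124337 to 16156087, minus strand) had the highest level per length of exon in the family. It was at 355.9, 340.0 and 307.5 CPM in shECM1 replicates 1, 2 and 3, against 582.5, 375.7 and 754.2 CPM in shNC replicates 1, 2 and 3. The knockdown libraries lay close together and below all controls, and shNC replicate 2 lay much nearer to them than the other controls did. The fitted level was 1.71-fold lower in shECM1, with a log2 fold change of -0.77 ± 0.20 (SE) and a 95% interval from -1.21 to -0.34. EdgeR did not call it (adjusted p = 0.0996). DESeq2 did (adjusted p = 0.00559). So did edgeR when low-count genes were kept in the fit (adjusted p = 0.0218) and when shNC replicate 2 was left out, where EPHA2 was at -0.98 (adjusted p = 0.000314). Without shNC replicate 3, the highest control, EPHA2 was at -0.52 and uncalled (edgeR adjusted p = 0.295).

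EPHA1 (ENSG00000146904, GRCh38 chromosome 7, 143390289 to 143408892, minus strand) encodes a receptor of the same class that is found mainly in epithelia. It stood at a far lower level per length, from 69 to 166 counts per shECM1 library and from 158 to 265 per shNC library. It was at 6.85, 9.89 and 8.56 CPM in shECM1 and at 15.1, 11.3 and 19.0 CPM in shNC. As with EPHA2, the groups did not overlap and shNC replicate 2 was the lowest control. The log2 fold change was -0.83 ± 0.21 (SE), uncalled by edgeR (adjusted p = 0.0996), called by DESeq2 (adjusted p = 0.0158), and at -0.99 without shNC replicate 2 (edgeR adjusted p = 0.00313). Without shNC replicate 3 EPHA1 was at -0.63 and uncalled (edgeR adjusted p = 0.335). Exons of EPHA1 overlap those of ZYX, the zyxin gene on the opposite strand, in GENCODE release 29. ZYX was at 104.1 ± 7.31 CPM in shECM1 and 146.6 ± 31.7 CPM in shNC. Since it is not stated whether counting used strand, reads of the 2 genes in the overlap cannot be told apart.

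The B-type receptors of the crypt, EPHB2 and EPHB3, had 95% intervals that span 0. EPHB2 (ENSG00000133216, GRCh38 chromosome 1, 22710839 to 22921500, plus strand), a receptor whose loss marks the progression of many colorectal tumours, was at 75.8, 79.8 and 90.4 CPM in shECM1 and at 91.3, 79.0 and 87.3 CPM in shNC. The groups overlapped throughout. The log2 fold change was -0.06 ± 0.11 (SE) with a 95% interval from -0.31 to 0.18 (edgeR adjusted p = 0.755). It was -0.11 without shNC replicate 2 (edgeR adjusted p = 0.509). Its sign was positive, at 0.034, when a trend on GC content was taken out of each library.

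EPHB3 (ENSG00000182580, GRCh38 chromosome 3, 184561784 to 184582409, plus strand), the other crypt receptor of that pair, was at 17.0, 15.6 and 24.9 CPM in shECM1 and at 24.4, 19.3 and 24.0 CPM in shNC. ShECM1 replicate 3 was the highest of all 6 libraries, so the groups overlapped. Its log2 fold change of -0.24 ± 0.19 (SE) had a 95% interval from -0.65 to 0.17 (edgeR adjusted p = 0.459). Leaving out shNC replicate 2 gave -0.33 (edgeR adjusted p = 0.223), and taking out the GC trend gave -0.06.

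EPHB4 (ENSG00000196411, GRCh38 chromosome 7, 100802565 to 100827521, minus strand), the receptor for ephrin-B2 that is best known from veins, was scarce here, with 25, 39 and 50 counts in shECM1 and 43, 49 and 75 counts in shNC. These counts correspond to 2.48, 2.32 and 3.66 CPM in shECM1 and 3.64, 3.52 and 5.37 CPM in shNC. Only shECM1 replicate 3 reached into the range of the controls. EPHB4 had a log2 fold change of -0.57 ± 0.28 (SE) and a 95% interval from -1.18 to 0.05 (edgeR adjusted p = 0.253). The estimate was -0.67 without shNC replicate 2 (edgeR adjusted p = 0.11). Exons of EPHB4 overlap SLC12A9 on the opposite strand, a transporter gene at 8.35 ± 1.66 CPM in shECM1 and 7.32 ± 1.45 CPM in shNC.

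Among the A-type ligands, EFNA1 (ENSG00000169242, GRCh38 chromosome 1, 155127460 to 155134857, plus strand), the ephrin that EPHA2 binds with high affinity, was at 24.8, 26.3 and 36.2 CPM in shECM1 and at 33.6, 33.0 and 28.1 CPM in shNC. The highest and the lowest library both belonged to shECM1. The log2 fold change was -0.11 ± 0.16 (SE), with a 95% interval from -0.46 to 0.23 (edgeR adjusted p = 0.691). It was -0.07 without shNC replicate 2 (edgeR adjusted p = 0.803) and 0.014 with the GC trend taken out.

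EFNA4 (ENSG00000243364, GRCh38 chromosome 1, 155063731 to 155069553, plus strand), another lipid-anchored ephrin, had 13, 21 and 31 counts in shECM1 and 24, 27 and 45 counts in shNC. In CPM it was at 1.29, 1.25 and 2.27 in shECM1 and at 2.03, 1.94 and 3.22 in shNC, with shECM1 replicate 3 inside the range of the controls. For EFNA4 the log2 fold change was -0.58 ± 0.35 (SE), with a 95% interval from -1.34 to 0.18 (edgeR adjusted p = 0.337), and it was -0.70 without shNC replicate 2 (edgeR adjusted p = 0.171). Its exons overlap the readthrough gene EFNA4-EFNA3 on the same strand, which had 1 count in all 6 libraries together, so its count is uncertain.

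EFNA5 (ENSG00000184349, GRCh38 chromosome 5, 107376889 to 107670895, minus strand), best known from axon guidance, had 0, 1 and 2 counts in shECM1 and 3, 1 and 4 counts in shNC. All but 1 of these lie at or below 3 counts, the limit that a count of 0 allows, so that no difference could be read at this depth.

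The B-type ligands had the highest levels per length among the ephrins. EFNB2 (ENSG00000125266, GRCh38 chromosome 13, 106489731 to 106535662, minus strand), the transmembrane ligand of EPHB2, EPHB3 and EPHB4, was at 143.4, 140.5 and 130.9 CPM in shECM1 and at 196.1, 138.9 and 204.8 CPM in shNC. ShNC replicate 2 lay among the knockdown libraries and the other controls above all of them. At a log2 fold change of -0.38 ± 0.14 (SE), neither edgeR (adjusted p = 0.154) nor DESeq2 (adjusted p = 0.112) called it. Without shNC replicate 2 it was -0.52, and edgeR called it (adjusted p = 0.00303). Without shNC replicate 3 it was -0.28 and uncalled (edgeR adjusted p = 0.485).

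EFNB1 (ENSG00000090776, GRCh38 chromosome X, 68828997 to 68842147, plus strand), the X-linked transmembrane ephrin, was at 77.1, 72.1 and 69.1 CPM in shECM1 and at 120.7, 70.2 and 148.9 CPM in shNC. Here too shNC replicate 2 lay inside the range of the knockdown libraries. The log2 fold change was -0.64 ± 0.21 (SE), uncalled by edgeR (adjusted p = 0.13) and called by DESeq2 (adjusted p = 0.0427). Without shNC replicate 2 it was -0.88 (edgeR adjusted p = 0.000451), and without shNC replicate 3, the highest control, it was -0.39 and uncalled (edgeR adjusted p = 0.442).

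**Figure D2:**
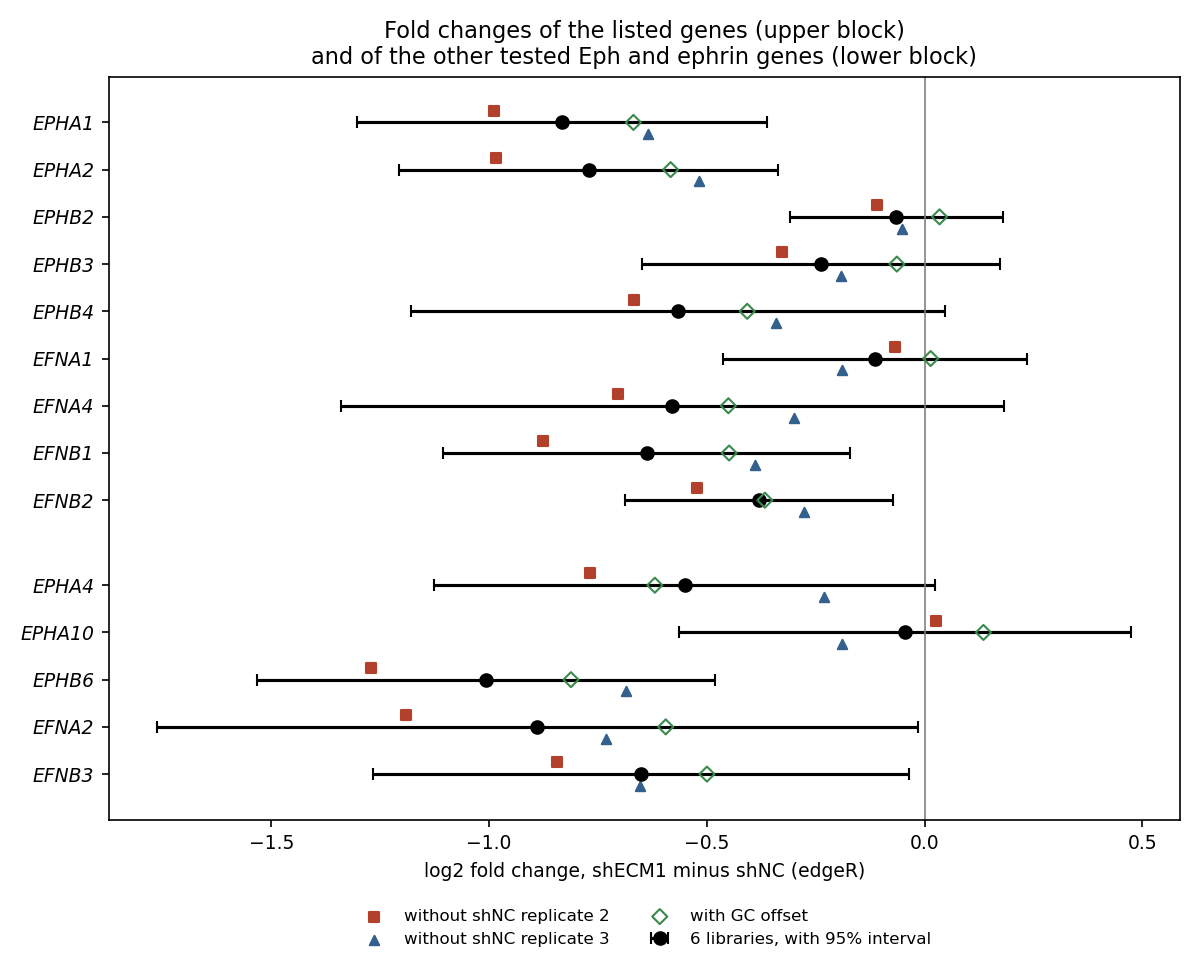
Log2 fold changes of shECM1 minus shNC from edgeR, with the 9 tested genes of the list above and 5 further Eph and ephrin genes below; the horizontal axis is log2 and 0 means equal levels. Black points and bars are the estimate from 6 libraries and its 95% interval, red squares leave out shNC replicate 2, blue triangles leave out shNC replicate 3, and green diamonds take out a trend on GC content. EPHA1, EPHA2, EFNB1 and EFNB2 stay below 0 in all 4 estimates, and so do EPHB3, EPHB4 and EFNA4. In the lower block EPHA4, EPHB6, EFNA2 and EFNB3 do so as well. EPHB2, EFNA1 and EPHA10 lie near 0, with estimates on either side of it.

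The genes of the list fell into 2 patterns across libraries. EPHA2, EFNB1 and EFNB2 were high in shNC replicates 1 and 3 and low in the other 4 libraries, and EPHA1 was highest in the same 2 libraries. On the log2 scale, centred on each gene's mean, EPHA2 was at 0.44, -0.19 and 0.82 in the shNC libraries and EFNB1 at 0.44, -0.34 and 0.75. By contrast, EPHB2, EPHB3, EPHB4, EFNA1 and EFNA4 had a higher level in shECM1 replicate 3 than in shECM1 replicates 1 and 2. In EFNA1 that library lay 0.27 above the gene's mean, against -0.27 and -0.19 in the other shECM1 libraries. The patterns are not fully apart, since EPHB4 and EFNA4, at low counts, were highest in shNC replicate 3, at 0.65 and 0.72.

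**Figure D3:**
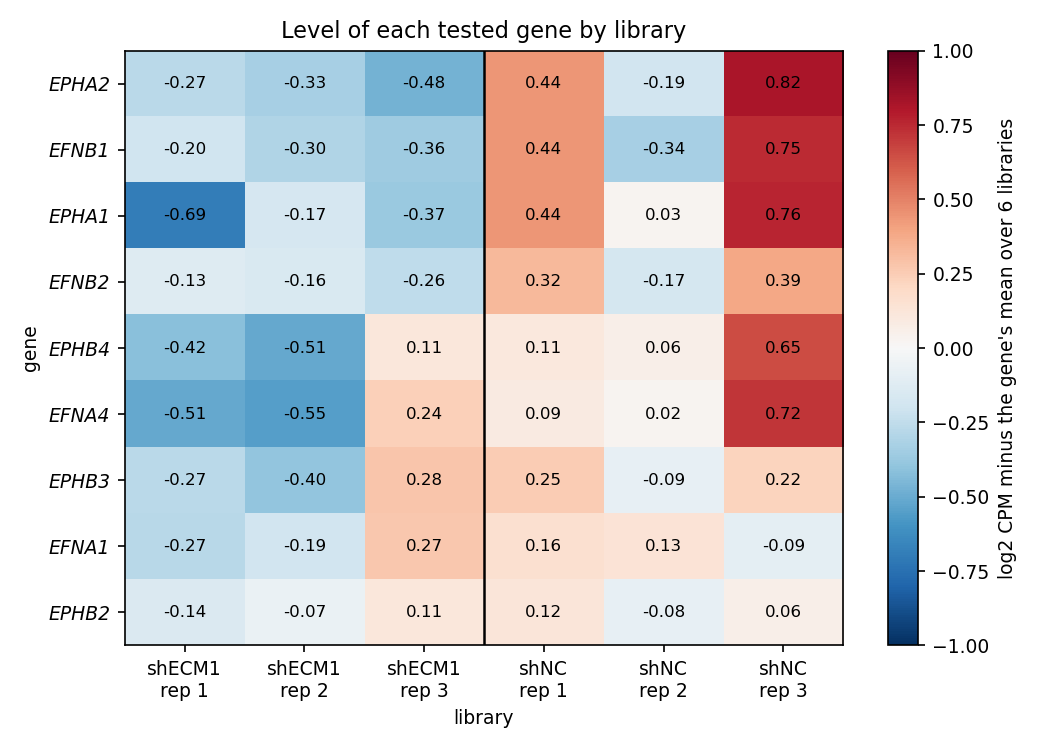
Heat map of log2 CPM minus each gene's mean over 6 libraries, with genes in rows, libraries in columns and shECM1 to the left of the black line; red is above and blue below the gene's mean. The upper 4 genes are highest in shNC replicates 1 and 3, and the lower 5 genes are higher in shECM1 replicate 3 than in the other shECM1 libraries.

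Counted as groups that do not overlap, EPHA1 and EPHA2 made 2 of 9 (22.2%), lower in shECM1 in both cases. Over all tested genes 24.4% did not overlap in either direction and 13.2% were lower.

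Ratios within a library are free of the scaling between libraries. There were 4.69, 4.26 and 3.40 EPHA2 counts per EPHB2 count in shECM1, against 6.38, 4.76 and 8.64 in shNC, which did not overlap. The ratio of EPHA2 to its ligand EFNA1 was 11.9 ± 3.05 in shECM1 and 18.5 ± 7.77 in shNC (SD, n = 3 each), with overlap. The ratio of EPHA2 to EPHA1 was 40.8 ± 9.74 in shECM1 and 37.1 ± 3.53 in shNC, with overlap. Ratios of EPHB2 to EFNB2, EFNB1 to EFNB2, EPHB2 to EPHB3 and EPHA2 to EPHB6, a further receptor, overlapped as well. EPHA2 to EPHB2 was thus the only ratio examined that did not overlap, with 4.69 and 4.76 as the nearest values. The level of EPHA2 alone did not overlap either, so this ratio is no separate support. No share over other pairs of genes was taken. All these ratios include the difference in transcript length between the genes, so they are compared between groups only, and they were described without a test.

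Because longer transcripts yield more fragments in whole-transcript libraries, levels were compared between genes as CPM per kilobase of annotated exon. EPHA2 came first on that scale, at 80.4 ± 5.93 in shECM1 and 137.2 ± 45.6 in shNC (SD, n = 3 each). EFNB2 followed with 27.5 in shECM1 and 35.9 in shNC, then EFNB1 with 22.0 and 34.2, EFNA1 with 11.5 and 12.4, and EPHB2 with 6.55 and 6.86. EPHB3 had 4.22 in shECM1 and 4.98 in shNC, EPHA1 1.78 and 3.20, EFNA4 1.27 and 1.90, and EPHB4 0.438 and 0.649, with EFNA5 last. Over the 6 libraries, EFNB2 and EFNB1 overlapped in range, as did EPHB3 with EPHA1 and EPHA1 with EFNA4, and the other neighbours in the order did not. The labels' protocols also describe droplet libraries read from the 3' end, where counts would not grow with length, and in that case this order would not hold as given.

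The 4 genes below 0.05 before adjustment are shown by their promoters, the 300 bases from 250 before to 50 after the RefSeq start of the gene (build GRCh38.p14), since they were highest in the same control libraries. They lie at chr1:16156020-16156319 for EPHA2, chr7:143408807-143409106 for EPHA1 and chr13:106535613-106535912 for EFNB2 on the minus strand, and at chrX:68828771-68829070 for EFNB1 on the plus strand. Capitals mark matches on either strand to any of the motifs searched: the GC box GGGGCGGGG, the EGR sites GCGTGGGCG and GCGGGGGCG, and the cyclic AMP response element TGACGTCA. The AP-1 site TGACTCA was searched as well, as were the TCF/LEF site written CTTTGAT and the ETS site written CCGGAAG.
EPHA2: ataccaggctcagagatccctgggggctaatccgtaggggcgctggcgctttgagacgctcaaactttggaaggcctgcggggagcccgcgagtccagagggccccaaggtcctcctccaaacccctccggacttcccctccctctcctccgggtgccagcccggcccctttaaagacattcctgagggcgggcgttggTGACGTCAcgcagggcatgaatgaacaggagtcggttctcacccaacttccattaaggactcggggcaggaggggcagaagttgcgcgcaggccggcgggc
EPHA1: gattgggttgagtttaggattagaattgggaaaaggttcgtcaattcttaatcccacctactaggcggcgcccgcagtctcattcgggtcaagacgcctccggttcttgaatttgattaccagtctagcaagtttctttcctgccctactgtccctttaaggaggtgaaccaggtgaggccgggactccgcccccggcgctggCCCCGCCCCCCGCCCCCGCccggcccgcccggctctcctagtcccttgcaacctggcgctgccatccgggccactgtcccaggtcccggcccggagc
EFNB1: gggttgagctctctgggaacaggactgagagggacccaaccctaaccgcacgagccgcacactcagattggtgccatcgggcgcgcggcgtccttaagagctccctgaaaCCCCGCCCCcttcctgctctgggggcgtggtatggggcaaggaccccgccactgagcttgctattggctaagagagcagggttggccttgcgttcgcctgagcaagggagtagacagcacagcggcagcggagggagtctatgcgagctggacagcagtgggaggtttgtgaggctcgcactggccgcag
EFNB2: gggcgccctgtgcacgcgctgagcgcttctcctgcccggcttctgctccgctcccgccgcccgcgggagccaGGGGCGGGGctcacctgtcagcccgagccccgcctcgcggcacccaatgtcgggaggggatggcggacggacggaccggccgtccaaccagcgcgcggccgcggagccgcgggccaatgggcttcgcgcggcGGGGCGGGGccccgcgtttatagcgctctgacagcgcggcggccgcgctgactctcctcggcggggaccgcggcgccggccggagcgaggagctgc

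The EPHA2 promoter held a TGACGTCA match that starts 51 bases before the gene start, and no GC box match. That element was found in 1.85% of 35116 promoters of the same length. EPHA1 had 2 GC box matches and 1 EGR match, GCGGGGGCG, which overlap each other between 47 and 29 bases before the start. EGR matches were found in 5.77% of all promoters and GC box matches in 15.7%. EFNB1 had 1 GC box match and EFNB2 had 2. Among all 10 genes, 7 had a GC box match, among them EPHB3, EPHB4, EFNA1 and EFNA4, so the motif occurred in genes of either pattern. The 10 windows held from 58.3% (EFNA4) to 83.0% (EPHB2) G and C bases. The 35116 promoters were not matched to them in GC content, and its part in the matches was not tested. No AP-1, TCF/LEF or ETS match was found in the 10, where 4.95%, 2.62% and 10.3% of all promoters held one. A match describes the letters in this window and says nothing of the binding of a factor.

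The rest of the family gave 12 more genes. EPHB6, a receptor whose kinase domain is inactive, came second to EPHA2 among receptors per kilobase of exon, with 16.4 CPM per kilobase in shECM1 and 32.9 CPM per kilobase in shNC. Its level was 89.3, 86.2 and 86.3 CPM in shECM1 and 179.9, 100.9 and 244.9 CPM in shNC, again without overlap and with shNC replicate 2 as the lowest control. Its log2 fold change of -1.01 ± 0.24 (SE) was uncalled by edgeR (adjusted p = 0.0973) and called by DESeq2 (adjusted p = 0.00144). EPHB6 was at -1.27 without shNC replicate 2 (edgeR adjusted p = 0.000158) and at -0.69 without shNC replicate 3 (edgeR adjusted p = 0.262). EPHA4, EFNA2 and EFNB3 had log2 fold changes of -0.55, -0.89 and -0.65, all uncalled by both tools. EdgeR without shNC replicate 2 called each of them (adjusted p = 0.022, 0.017 and 0.0328), where 14.1% of all genes were called lower. DESeq2 without that library called EPHA4 and EFNA2 (adjusted p = 0.017 and 0.0153) but not EFNB3 (adjusted p = 0.0874), against 12.8% of all genes lower. EPHA10 was at -0.05 ± 0.24 (SE). EPHA3, EPHA6 and EPHA7 had 0 counts in every library, which allows up to 0.298 CPM in shECM1 and 0.254 CPM in shNC for counting error only, and EPHA5, EPHA8 and EPHB1 had at most 4 counts. EFNA3 had 3 to 9 counts in shECM1 and 7 to 16 in shNC and was not tested.

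Summed over all 14 receptor genes, the level was 560.3, 548.0 and 534.3 CPM in shECM1 and 914.3, 603.6 and 1156 CPM in shNC. Summed over the 8 ephrin genes it was 250.8, 245.8 and 245.3 CPM in shECM1 and 365.0, 249.8 and 396.0 CPM in shNC. EPHA2 held 61.0% ± 3.10 of all receptor counts in shECM1 and 63.7% ± 1.51 in shNC (SD, n = 3 each), and EFNB2 held 55.9% ± 2.21 of ephrin counts in shECM1 and 53.7% ± 1.95 in shNC. The groups overlapped in both shares.

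Genes that act with the receptors were followed through lists of names. The lists were chosen with earlier results of these data known, so their tallies are no independent support. Of 40 adaptors and signalling proteins, 36 were tested and 25 of these lay below 0 (median log2 fold change -0.11), where 48.6% of all genes did. EdgeR called 0 of them. At an unadjusted p under 0.05, 7 were lower (19.4%, against 14.2% of all genes) and 1 was higher (against 1045 of all 12576 genes). DESeq2 called 4 lower, against 5.08% of all genes. With shNC replicate 2 left out, edgeR called 7 lower and 1 higher, against 14.1% of all genes lower and 1236 of the 12576 genes higher. FYN and RAC1, a Src-family kinase and a small GTPase, had the highest CPM, with log2 fold changes of -0.10 ± 0.10 and -0.09 ± 0.11 (SE). NGEF, the ephexin exchange factor that binds EphA receptors, was at 32.5 ± 3.87 CPM in shECM1 and 54.7 ± 15.2 CPM in shNC, with a log2 fold change of -0.75 that DESeq2 called (adjusted p = 0.00858). CHN1, a Rac-inactivating chimaerin known in mouse as an effector of EphA4, was at 15.2 ± 0.532 CPM in shECM1 and 11.3 ± 0.697 CPM in shNC and was uncalled by both tools.

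For shedding, dephosphorylation and turnover, 9 of 12 genes were tested and 7 were negative, against 48.6% of all genes, with a median of -0.09. Of these 2 were lower (22.2%, against 14.2% of all genes) and 0 higher at an unadjusted p under 0.05 by edgeR, which called 0, and DESeq2 called 1, against 5.08% of all genes. With shNC replicate 2 left out, edgeR called 3 lower and 1 higher, against 14.1% of all genes lower and 1236 of 12576 genes higher. PTPRF, a receptor phosphatase that can dephosphorylate EPHA2, was at 117.2 ± 6.36 CPM in shECM1 and 176.0 ± 31.0 CPM in shNC, and DESeq2 called it (adjusted p = 0.00513). ACP1, the low molecular weight phosphatase, had a log2 fold change of 0.22 ± 0.10 (SE). All 9 tested genes of ephrin reverse signalling were negative, against 48.6% of all genes, with a median of -0.21. Of these 1, STAT3 at -0.29, passed an unadjusted p under 0.05 (11.1%, against 14.2% of all genes lower), while edgeR and DESeq2 called 0. EdgeR without shNC replicate 2 called 2 of the 9 lower, against 14.1% of all genes. SDCBP, the syntenin gene whose product binds the tails of B-type ephrins, was at -0.21 ± 0.13 (SE), and DVL1 at -0.30 ± 0.15.

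Output genes of the beta-catenin/TCF and ERK pathways, named above for EPHB2, EPHB3 and EPHA2, were measured beside them. They are readouts of these pathways, and a link to the levels of the Eph genes was not tested. These lists too were chosen with earlier results of these data known. Of 13 tested genes of beta-catenin/TCF output, 7 were negative and 6 positive, with a median of -0.12. EdgeR called 0, with 4 lower and 2 higher at an unadjusted p under 0.05, and DESeq2 called 2 lower. EdgeR without shNC replicate 2 called 4 lower and 3 higher. NKD1, a Wnt feedback inhibitor, was at 379.7 ± 39.5 CPM in shECM1 and 534.1 ± 121 CPM in shNC, whereas MYC was at 538.2 ± 116 and 332.6 ± 146 CPM. ZNRF3, a ligase that removes Wnt receptors, had a log2 fold change of -0.49 (DESeq2 adjusted p = 0.0364). Of 14 ERK output genes, 13 were negative, with a median of -0.53, and 11 were lower at an unadjusted p under 0.05 with 0 called by edgeR and 6 by DESeq2. Without shNC replicate 2 edgeR called 12 of the 14 lower. IER3 and PHLDA1 had log2 fold changes of -0.74 and -0.44, EGR1 was at -0.84 (DESeq2 adjusted p = 0.000129), and SPRED1, a Ras inhibitor, was at 0.22 ± 0.12 (SE). For all 12576 genes the median was 0.01 and 48.6% lay below 0. At that threshold 14.2% were lower and 1045 genes were higher. DESeq2 called 5.08% lower. EdgeR without shNC replicate 2 called 14.1% lower, and it called 1236 of the 12576 genes higher.

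**Figure D4:**
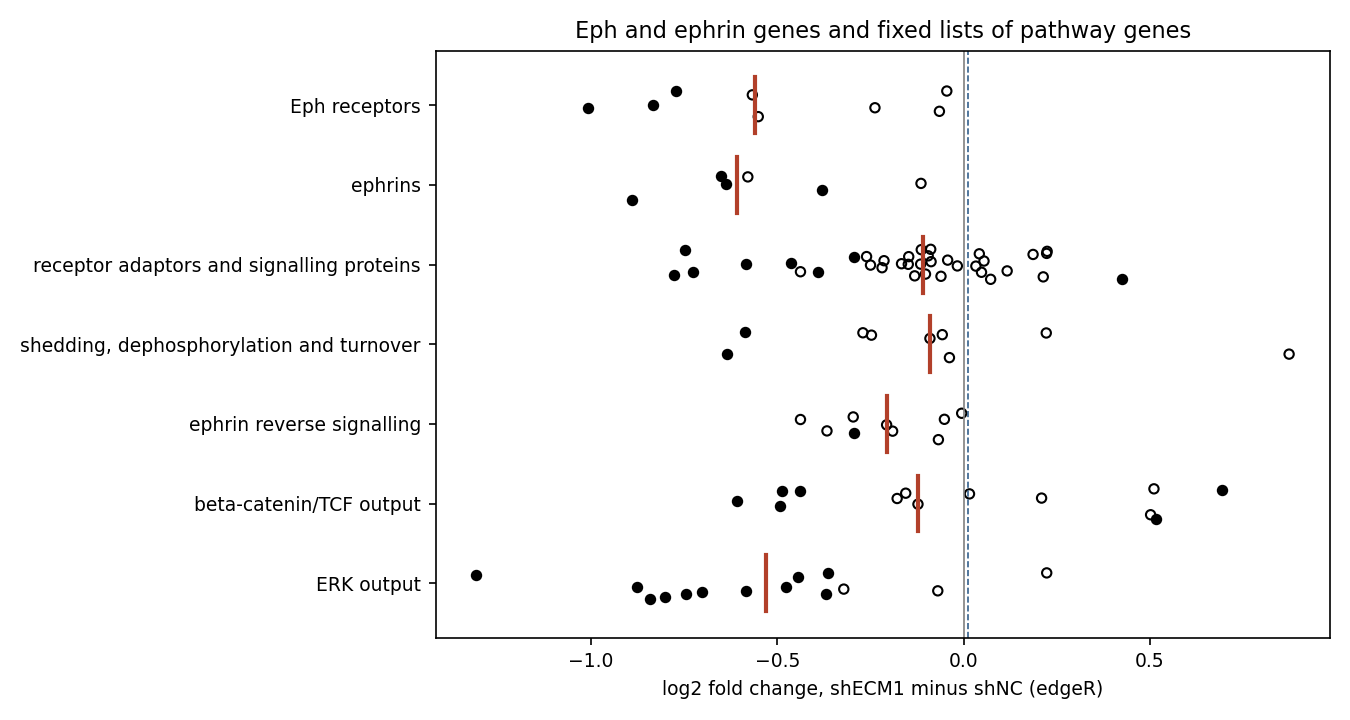
Each point is 1 tested gene of the list named at the left, placed by its edgeR log2 fold change of shECM1 minus shNC, with filled points at an unadjusted p under 0.05. Red bars are list medians, the blue dashed line is the median of all tested genes at 0.01, and the grey line is 0. Receptors and ephrins (medians -0.56 and -0.61) and ERK output genes (-0.53) lie mostly below 0, and the adaptors (-0.11) and beta-catenin/TCF output genes (-0.12) lie on both sides.

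The 5 genes whose pattern over the 6 libraries was most like that of EPHA2 were FXYD5, KRT86, LGALS9, YPEL3 and NIBAN2. Likeness was the root-mean-square difference between centred log2 CPM values, among 8944 genes with a mean of at least 10 CPM. It was 0.0331 for FXYD5, an ion transport regulator, 0.0337 for the keratin gene KRT86, 0.0426 for the galectin gene LGALS9, 0.0427 for YPEL3 and 0.0469 for NIBAN2, where the median gene had 0.492. FXYD5 was at 46.8, 44.7 and 41.2 CPM in shECM1 and at 81.0, 50.7 and 104.9 CPM in shNC, high in the same 2 controls as EPHA2. KRT86 has near-identical copies and its count is uncertain. Among the other tested genes of the list, EFNB1 was the nearest to EPHA2 at 0.0878, then EPHA1 at 0.21 and EFNB2 at 0.223, and EFNA1 was the farthest at 0.515. Family genes outside the list, EPHB6 among them, were not placed in this order.

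Other cell types were looked for by their markers, because EPHB4 and EFNB2 are also endothelial genes. Of 13 endothelial markers 9 had a count and 3 were tested, and KDR, EMCN, ERG and PLVAP had 0 counts in every library. The endothelial markers summed to 9.43 to 10.2 CPM in shECM1 and 13.2 to 17.9 CPM in shNC, and VWF, their most abundant gene, was at 6.11 ± 0.537 and 7.83 ± 1.24 CPM. Fibroblast markers summed to 116.5 to 124.4 CPM in shECM1 and 167.2 to 309.3 CPM in shNC, with 9 of 13 having a count, PDGFRA, COL3A1, FAP and POSTN at 0, and COL6A1 at 83.7 ± 2.77 and 168.3 ± 49.3 CPM. Immune markers summed to 50.1 to 79.3 CPM in shECM1 and 77.4 to 195.1 CPM in shNC, mostly through CD68, with PTPRC, CD3E, MS4A1 and FCGR3A at 0. Other markers of high level or small p were COL6A2 at a log2 fold change of -1.34, LYZ at -0.96, ESAM at -1.57 and PECAM1 at -0.14. EdgeR called no gene in that fit. DESeq2 called 3 of the 5 tested fibroblast markers lower, COL6A1 (adjusted p = 0.000129) and COL6A2 (adjusted p = 0.000135) among them. It called 0 of the tested endothelial, immune and neural markers, and 5.08% of all genes lower. Without shNC replicate 2 edgeR called 3 of 5 fibroblast, 1 of 3 endothelial, 2 of 3 immune and 0 of 4 neural markers lower. Of all genes, 14.1% were called lower in that fit, and lists this short allow no reading by cell type. Neural markers summed to 12.3 to 14.5 CPM in shECM1 and 13.3 to 15.6 CPM in shNC, with SYP at a log2 fold change of 0.06 and NCAM1 at -0.42. The cells were the SW620 line, and bulk libraries do not show which cells a marker transcript came from. The markers of all these types are therefore given as transcript levels only, and their part in the results was not tested.

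GC content was measured beside the fold changes too. The longest transcripts of 9 of the 10 genes lay above the median GC content of tested genes, 49.0%, and the median of the 10 was 59.0%. With a trend on GC content taken out of each library, the log2 fold changes were -0.67 for EPHA1, -0.58 for EPHA2, -0.45 for EFNB1 and -0.37 for EFNB2. EdgeR then called 0 of the 9 genes (0.0% of all genes), and 3 of 9 were lower at an unadjusted p under 0.05, against 12.7% of all genes. EFNB1 was the gene that no longer passed, at an unadjusted p of 0.0562 in edgeR.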

How the data were processed

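The authors deposited 1 table of raw counts, whole reads per gene and library, for 3 shECM1 and 3 shNC libraries. The submitters' processing notes name STAR, featureCounts, fastp, Seurat and DESeq2, and the builds GRCh38 and hg38. How the tools were set, and whether strand was used, is not stated there. Per the labels' protocols both total RNA and droplet single-cell libraries were prepared, and each column was analysed as 1 library. Symbols were found for 20462 of 20476 identifiers, and GENCODE release 29 (GRCh38) gave exon lengths and overlaps.

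Counts were tested in R 4.3.3 with edgeR 4.0.16 (filterByExpr, TMM scaling, glmQLFit and glmQLFTest, no covariate), with Benjamini-Hochberg adjustment over 12576 genes and a threshold of 0.05. CPM are TMM-normalised. The SE was taken from the fold change and its F statistic, and the 95% interval uses the t distribution. DESeq2 1.42.0, limma 3.58.1 (voom), other scalings and filters, the replicate block and leaving out each library were alternatives. The GC trend (loess, span 0.5) and DESeq2 without shNC replicate 2 were added after the data were seen. The fit was tested on simulated counts. Centred log2 CPM used a prior count of 2.

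The genes and lists were chosen with earlier results of these data known. The rule for named genes took the 10 listed genes and ECM1, the rest of the family, and from each list the 2 genes of highest level and the smallest p in each direction, plus the 5 genes most like EPHA2. Promoters are from RefSeq and were matched to all 10 genes by symbol; a stretch of the bases after the start was found in a GENCODE transcript of the gene for all but EFNA5. No proteins were used here. The 95% intervals of fold changes come from the spread between libraries, and the limit of 3 counts covers counting error only.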

Additional observations from a re-analysis of the deposited data

How the results depend on the processing

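All 9 genes kept a negative log2 fold change under every alternative except the GC trend, where EPHB2 was at 0.034 and EFNA1 at 0.014; the cause was not tested. The number of genes called was 0 in edgeR and 505 with no count filter, 713 with DESeq2, 2686 with DESeq2 without shNC replicate 2, and 0 to 3037 when 1 library was left out (3037 without shNC replicate 2). With no count filter EPHA1 (-0.83), EPHA2 (-0.77) and ECM1 (-1.58) were called. DESeq2 called EPHA1 (-0.83), EPHA2 (-0.77), EFNB1 (-0.63) and ECM1 (-1.57), and without shNC replicate 2 it called EPHA1 (-1.001), EPHA2 (-0.99), EFNB1 (-0.88), EFNB2 (-0.53) and ECM1 (-1.89). Leaving out 1 library gave log2 fold changes from -0.99 to -0.63 for EPHA1, -0.98 to -0.52 for EPHA2, -0.88 to -0.39 for EFNB1, -0.52 to -0.28 for EFNB2, -0.80 to -0.34 for EPHB4, -0.92 to -0.30 for EFNA4, -0.47 to -0.10 for EPHB3, -0.30 to -0.01 for EFNA1, -0.14 to -0.01 for EPHB2 and -1.88 to -1.24 for ECM1. The number of listed genes whose groups do not overlap was 2 and ran from 2 to 6 when 1 library was left out, but the share over all genes also grew, to 45.3% without shECM1 replicate 3 and 53.6% without shNC replicate 2.

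Same-numbered libraries did not deviate together (correlations of -0.07, -0.05 and -0.18 for replicates 1, 2 and 3), so the numbers were not taken as pairs. With the replicate block edgeR called 0 genes, with 2414 at an unadjusted p under 0.05, and EPHA2 was at -0.72. The tested genes of the list with under 100 counts in every library (EPHB4 and EFNA4) have wide intervals. They gave no value with a minimum of 50 counts. EFNA5 was not tested and has no interval.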
